A study of Mus musculus with 12 samples.

Results

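*Rab4a*, *Ttc41*, *Wdfy1*, *Tmem181b-ps* and *Plac9b* are the 5 genes described here, out of 19308 in the count table of mouse hearts lacking the fatty acid binding protein FABP3. They were chosen by their log2 fold change of F3-KO against WT hearts, which had the same direction after sham surgery and after transverse aortic constriction (TAC). In F3-KO hearts the first 4 were lower and *Plac9b* was higher, in both surgeries. Since the genotype difference chose the genes, its size is given below as a description and carries no test.

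The study asked how the loss of *Fabp3* changes the heart under pressure overload. RNA was sequenced from 12 whole hearts, 3 in each of 4 groups: WT sham, F3-KO sham, WT TAC and F3-KO TAC. All mice were C57BL/6 (the substrain is not given in the labels), were operated on at 8 weeks of age and gave their hearts 1 week later. In TAC the aortic arch is narrowed with a suture and the ventricle must eject blood against the narrowing, and sham-operated mice were the controls. F3-KO mice carried a global *Fabp3* knockout made with CRISPR-Cas9, so the gene was targeted in every cell type and not in cardiomyocytes alone. The WT animals were C57BL/6 males bought from a supplier according to the methods, while the paper elsewhere calls WT animals littermates of the F3-KO mice.

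RAB4A is a small GTPase of early endosomes that sends internalised receptors and transporters back to the cell surface by the fast recycling route. WDFY1 binds the endosomal lipid phosphatidylinositol 3-phosphate through its FYVE domain, and it is known for bringing the adaptor TRIF (*Ticam1*) to Toll-like receptors TLR3 and TLR4. *Ttc41* encodes a tetratricopeptide repeat protein about which little is known. *Plac9b* is a copy of *Plac9*, a gene for a small secreted protein first described in placenta, and *Tmem181b-ps* is a transcribed pseudogene of the transmembrane gene *Tmem181a*.

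Of the 5 genes, *Ttc41*, *Plac9b* and *Tmem181b-ps* lie inside or beside near copies of other genes, and the sequences are shown first because reads from near copies can be assigned to either place. All sequences are those of GENCODE M21 on build GRCm38, read 5′ to 3′, and capitals mark the bases at which the members of a pair differ. The build and annotation behind the deposited counts are not settled by the sources used here, so positions below are those of GRCm38 only. *Ttc41* (chr10:86705811-86776844, plus strand) contains on its other strand a processed pseudogene of the targeted gene itself, *Fabp3-ps1* (chr10:86731987-86732388). None of the 6 annotated *Ttc41* transcripts has an exon at the pseudogene. Over the 402 bases of the *Fabp3* coding sequence (*Fabp3*, chr4:130308595-130315463), 399 were identical in *Fabp3-ps1*, or 99.25%. The first 150 bases of each differ at 1 position:
Fabp3: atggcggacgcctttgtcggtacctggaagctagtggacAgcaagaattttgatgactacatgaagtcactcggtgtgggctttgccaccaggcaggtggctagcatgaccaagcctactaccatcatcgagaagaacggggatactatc
Fabp3-ps1: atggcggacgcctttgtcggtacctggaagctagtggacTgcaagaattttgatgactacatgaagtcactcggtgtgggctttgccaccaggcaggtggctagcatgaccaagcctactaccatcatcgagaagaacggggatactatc

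Annotated transcripts were also cut into all windows of 100 bases, and each window was looked up in the transcripts of every other gene. Of the 724 windows of *Fabp3*, 157 (21.7%) were found letter for letter in *Fabp3-ps1*, whereas 0 of the 5624 windows of *Ttc41* were found in another gene. The count table has no row of its own for *Fabp3-ps1*. Whether reads of *Fabp3* or of its pseudogene were assigned to *Ttc41* was not tested, because the counting tool is not given in the sources used here.

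*Plac9b* (chr14:26167405-26182480) has 2 near copies on the same chromosome, *Plac9a* (chr14:25887506-25903100) and *Gm9780* (chr14:26027282-26042711). Their 327-base coding sequences are identical, 327 of 327 bases in each pair, and 96.5% of the 1273 windows of *Plac9b* occur in another gene. The first 150 coding bases, printed once since *Plac9a* has the same letters, therefore name neither gene:
Plac9b: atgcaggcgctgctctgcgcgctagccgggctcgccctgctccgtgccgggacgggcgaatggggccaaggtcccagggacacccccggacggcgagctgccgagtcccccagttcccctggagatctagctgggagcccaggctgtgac

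*Tmem181b-ps* (chr17:6438524-6467022) matched the coding sequence of *Tmem181a* (chr17:6256860-6308314) at 1406 of 1415 aligned positions, or 99.36%. Even so, 33.3% of its 4284 windows were shared, with 29.6% found in *Tmem181a* and 15.0% in *Tmem181c-ps*. The first 150 aligned positions differ at 3 of them:
Tmem181b-ps: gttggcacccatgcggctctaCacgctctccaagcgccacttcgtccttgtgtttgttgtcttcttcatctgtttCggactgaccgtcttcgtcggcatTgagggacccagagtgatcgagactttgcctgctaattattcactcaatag
Tmem181a: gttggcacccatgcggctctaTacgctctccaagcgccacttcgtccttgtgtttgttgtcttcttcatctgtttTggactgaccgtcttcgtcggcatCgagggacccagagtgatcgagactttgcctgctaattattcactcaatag

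*Rab4a* (chr8:123805985-123835287) serves as the contrast. Its coding sequence matched that of its paralog *Rab4b* (chr7:27168424-27178896) at 463 of 604 aligned positions, or 76.66%, and 0 of its 1752 windows occur in another gene. The start of each coding sequence shows how scattered the differences are:
Rab4a: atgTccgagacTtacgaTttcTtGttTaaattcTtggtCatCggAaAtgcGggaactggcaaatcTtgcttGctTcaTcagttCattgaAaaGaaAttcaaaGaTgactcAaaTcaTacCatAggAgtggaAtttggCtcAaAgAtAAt
Rab4b: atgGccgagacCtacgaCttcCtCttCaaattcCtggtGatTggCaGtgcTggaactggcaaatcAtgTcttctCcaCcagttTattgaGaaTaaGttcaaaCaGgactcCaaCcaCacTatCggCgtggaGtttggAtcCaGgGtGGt

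*Wdfy1* (chr1:79702262-79776143, minus strand) overlaps *Mrpl44*, a mitochondrial ribosomal protein gene on the opposite strand, at one end, and 27 of its 5719 windows (0.472%) lie in that overlap. In the RefSeq annotation of GRCm38.p6, *Tmem181b-ps* likewise overlaps *Dynlt1b*, a dynein light chain gene. In GENCODE M21 these genes lie apart, with *Dynlt1b* at chr17:6430112-6436296. Whether the counting used strand is not given in the sources used here, so reads from the overlaps could belong to either gene.

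Library totals were 10424334 to 14372011 estimated counts per heart, and 3 counts, the limit below which nothing is read here, correspond to 0.209 to 0.288 CPM (counts scaled to an equal library size). Levels below are CPM after TMM scaling and are not divided by gene length, so they can be compared between hearts but not between genes. All 5 genes stayed above that limit in every heart and passed the filter on low counts, which 14094 genes passed. Pairs of hearts within a group differed by 10 to 84.1 times the sampling noise (chi-square per degree of freedom), so no pair of files holds the same library. Summed markers of cardiomyocytes were 40000 to 74200 CPM over the 12 hearts with none of the 6 genes at 0. In bulk tissue, fewer cells of a type and less RNA per cell cannot be told apart.

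The targeted gene came first as a check of the labels. *Fabp3* read 2849, 2432 and 2117 CPM in the 3 WT sham hearts and 1089, 1040 and 1066 CPM in the F3-KO sham hearts. After TAC it read 3064, 2887 and 2904 CPM in WT and 1143, 1002 and 1014 CPM in F3-KO hearts. Every F3-KO heart was thus below every WT heart, 2.32-fold lower in sham and 2.8-fold lower in TAC means from the fit, while 1002 to 1143 CPM remained. Which bases of *Fabp3* were removed is not stated in the methods read here, and a count per gene does not show whether the remaining RNA is intact. This level and the 157 windows shared with *Fabp3-ps1* are given side by side, and the source of the remaining reads was not tested. For the protein, the paper reports from western blots that FABP3 was completely lost in the hearts of these mice.

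**Figure D1:**
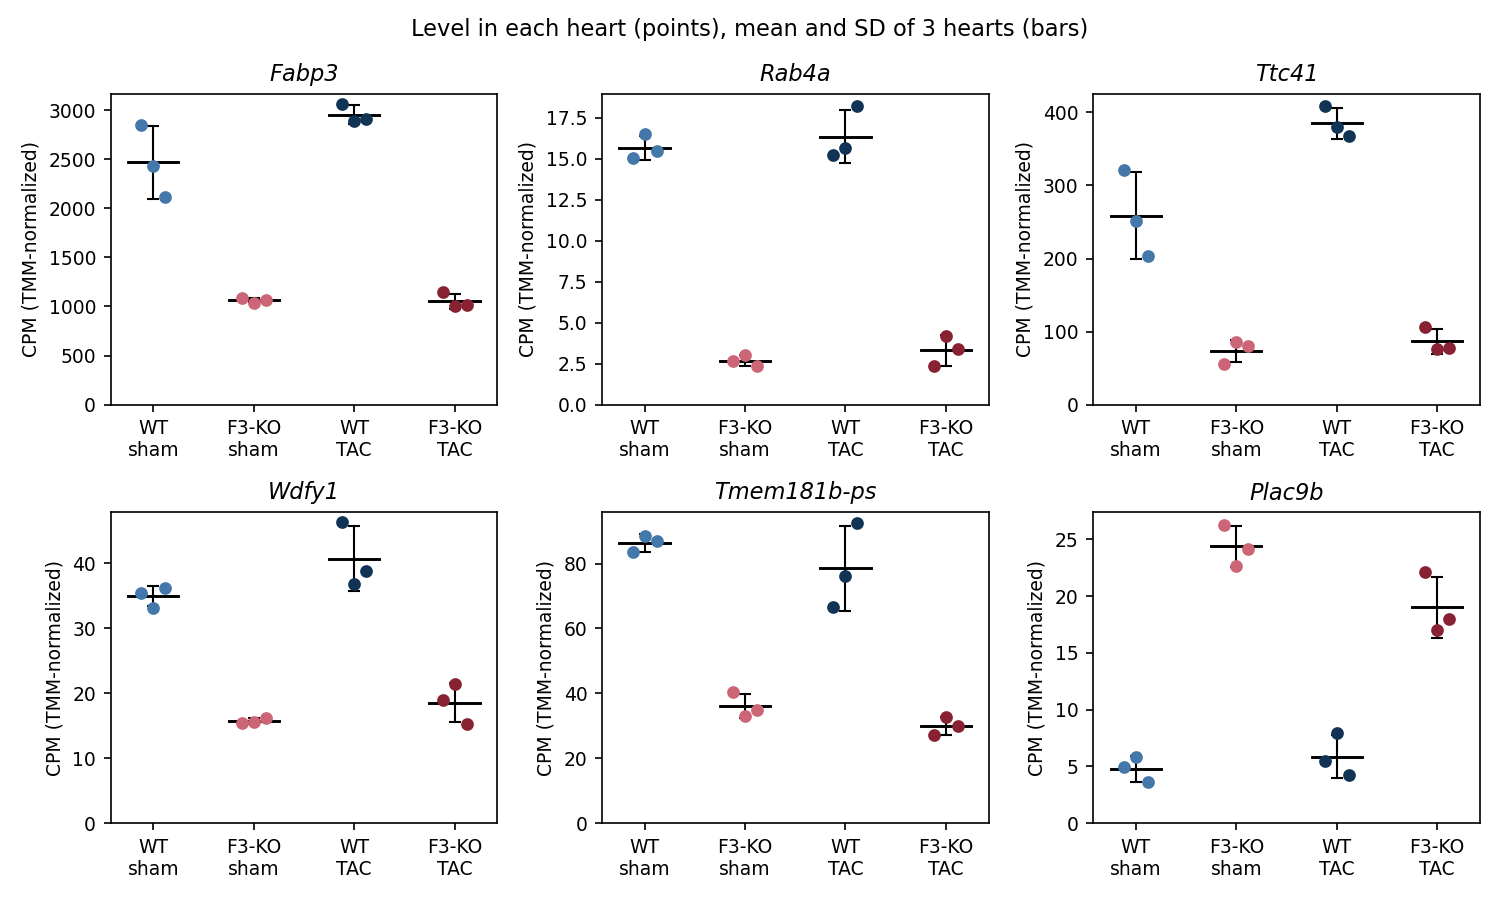
Levels of *Fabp3* and the 5 genes in each heart, in TMM-normalized CPM on axes that start at 0. Points are single hearts, and bars are the mean and SD of 3 hearts per group. In all 6 panels the F3-KO hearts of both surgeries lie apart from the WT hearts, below them except for *Plac9b*.

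*Rab4a*, the recycling GTPase, had the widest gap between genotypes of the 5. It was at 15.1, 16.5 and 15.5 CPM in WT sham hearts and at 2.66, 3.03 and 2.38 CPM in F3-KO sham hearts. After TAC the WT hearts were at 15.2, 15.7 and 18.2 CPM and the F3-KO hearts at 2.35, 4.21 and 3.38 CPM. The WT hearts sat within 1.21-fold of one another across both surgeries, and the lowest WT heart was 3.58 times the highest F3-KO heart. The fitted genotype difference was -2.54 ± 0.21 (log2, SE) in sham and -2.29 ± 0.20 in TAC, or 5.8-fold and 4.9-fold lower. The F3-KO values rest on 26.5 to 65.9 estimated counts per heart, the lowest counts among the 5, with a coefficient of variation of 23.7% over the 6 F3-KO hearts against 7.38% over the 6 WT hearts.

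*Ttc41* was at 321, 252 and 203 CPM in WT sham hearts and at 56.2, 85.1 and 79.6 CPM in F3-KO sham hearts. The corresponding TAC values were 408, 380 and 367 CPM in WT and 107, 76.4 and 77.2 CPM in F3-KO hearts. The groups did not overlap by genotype, although the WT hearts themselves spanned 2.01-fold, with the 3 sham hearts below the 3 TAC hearts. The genotype difference was -1.81 ± 0.21 in sham and -2.15 ± 0.21 in TAC on the log2 scale.

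*Wdfy1*, the endosomal adaptor, showed the smallest difference in both surgeries. WT sham hearts had 35.5, 33.2 and 36.2 CPM, and F3-KO sham hearts had 15.4, 15.6 and 16.2 CPM. WT TAC hearts had 46.4, 36.9 and 38.9 CPM, and F3-KO TAC hearts had 19.0, 21.4 and 15.3 CPM. The lowest WT heart was 1.55 times the highest F3-KO heart. The log2 differences of -1.15 ± 0.14 in sham and -1.13 ± 0.14 in TAC were 0.02 ± 0.20 apart, and 0.15 apart with scaling by the library total. Coefficients of variation within the 4 groups were 2.78% to 16.5%.

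*Tmem181b-ps* was at 83.4, 88.6 and 87.1 CPM in WT sham and 40.3, 33.1 and 35.0 CPM in F3-KO sham hearts. It was at 66.8, 76.1 and 92.6 CPM in WT TAC and 27.0, 32.8 and 30.0 CPM in F3-KO TAC hearts. Here too every F3-KO heart was below every WT heart, with the lowest WT heart at 1.66 times the highest F3-KO heart. The log2 difference was -1.26 ± 0.14 in sham and -1.39 ± 0.14 in TAC.

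*Plac9b* moved the other way. WT sham hearts had 4.95, 5.87 and 3.60 CPM against 26.3, 22.7 and 24.2 CPM in F3-KO sham hearts. WT TAC hearts had 5.49, 7.93 and 4.20 CPM against 22.1, 17.0 and 18.0 CPM in F3-KO TAC hearts. The lowest F3-KO heart was 2.15 times the highest WT heart. The log2 difference was 2.34 ± 0.24 in sham (5.08-fold) and 1.69 ± 0.23 in TAC (3.23-fold), and the TAC estimate less the sham estimate was -0.65 ± 0.32. This difference was -0.38 without WT TAC replicate 2 and -0.84 without WT TAC replicate 3.

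**Figure D2:**
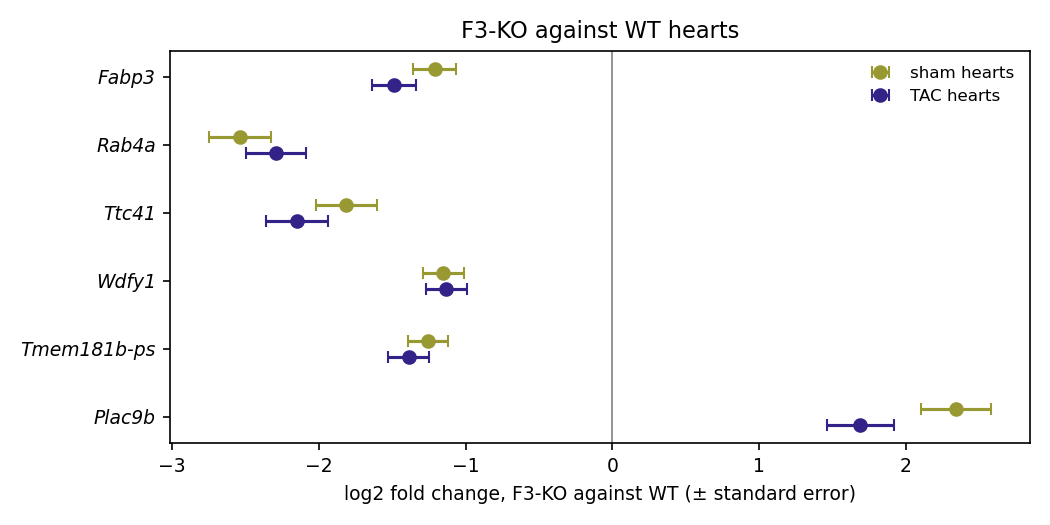
Fitted log2 fold change of F3-KO against WT hearts for *Fabp3* and the 5 genes, in sham and in TAC hearts, with standard errors as bars. Each gene's sham and TAC estimates lie on the same side of 0, for example -1.15 and -1.13 for *Wdfy1* and 2.34 and 1.69 for *Plac9b*.

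As a background for these values, 0.106% of the 14094 genes were called by genotype in sham hearts and 0.078% in TAC hearts, at an adjusted p under 0.05 in edgeR's quasi-likelihood test. In 0.639% of genes (90) the 6 F3-KO hearts did not overlap the 6 WT hearts, and the 5 genes are among these because of how they were selected. Called in both surgeries in the same direction were 7 genes, of which the other two were *Fabp3* and the row BGIG10090_47737, which has no gene symbol. By the larger of its 2 adjusted p-values, *Plac9b* was the member nearest the threshold. No genotype p-value is printed for the members, because these contrasts chose them. Outside the threshold stood *Dynlt1b* (log2 difference -1.70 in sham and -1.50 in TAC), *Lrmda* (3.0 and 2.88) and *Gm40525* (-2.72 and -2.87), each with 0.0602 as the larger adjusted p-value. Next came *Gm21451* (2.09 and 3.18, with 0.0656) and *Plac9a* (2.34 and 2.33). *Dynlt1b* and *Plac9a* are a neighbour and a near copy of members.

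The surgery comparison did not enter the selection and could be tested. TAC against sham, averaged over both genotypes, called 0.078% of genes, 11 in all. None of the 5 genes passed. The log2 change was 0.41 ± 0.14 for *Ttc41* (adjusted p = 0.185), 0.23 ± 0.10 for *Wdfy1* (adjusted p = 0.243) and 0.18 ± 0.14 for *Rab4a* (adjusted p = 0.52). It was -0.21 ± 0.10 for *Tmem181b-ps* (adjusted p = 0.289) and -0.03 ± 0.16 for *Plac9b* (adjusted p = 0.945).

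Within a single genotype, edgeR called 0.0% of genes after TAC both in WT hearts (0 genes, with 885 at an unadjusted p under 0.05 and 26 called by DESeq2) and in F3-KO hearts (0 genes, with 2412 and 442). The largest member estimate was that of *Ttc41* in WT hearts, 0.58 ± 0.20 (adjusted p = 0.782). In F3-KO hearts the same change was 0.24 ± 0.21 (adjusted p = 0.592). *Plac9b* was 0.30 ± 0.24 in WT and -0.36 ± 0.22 in F3-KO hearts (adjusted p 0.858 and 0.417). One library weighed on the surgery comparison: without F3-KO TAC replicate 3, 849 genes were called in the averaged comparison and 778 in F3-KO hearts, and still none of the 5 was among them (lowest adjusted p 0.0789, *Wdfy1*, 0.29 ± 0.09).

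**Figure D3:**
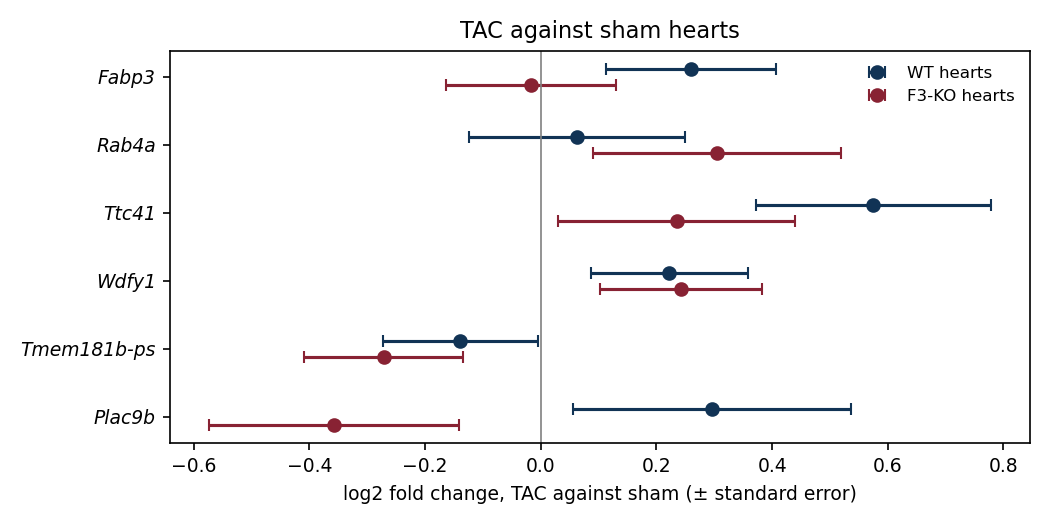
Fitted log2 fold change of TAC against sham hearts for *Fabp3* and the 5 genes, in WT and in F3-KO hearts, with standard errors as bars. All estimates lie between -0.36 and 0.58, and no estimate passed the test in either genotype.

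Neighbours were picked by position and tested over the whole table. *Plac9a* and *Gm9780*, which share their coding sequence with *Plac9b*, may hold some of the reads the selection used, so their genotype values are descriptions with no test, as those of the members are. To use all 12 hearts, genotype was also averaged over the 2 surgeries, a contrast added after the data were seen, which called 0.412% of genes (58). Neighbours were the 4 tested genes on each side of a member in RefSeq order, 40 in all. Of the 38 neighbours other than these copies, 2 were called in this contrast, *Tmem254b* beside *Plac9b* (higher) and *Dynlt1b* beside *Tmem181b-ps* (lower). In the single surgeries edgeR called *Dynlt1b* in sham hearts alone, and DESeq2 called both genes in each surgery. *Dynlt1b* overlaps *Tmem181b-ps* in RefSeq, so its calls may rest partly on reads the selection used and are not independent of it.

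Around *Plac9b*, the copies with identical coding sequence were higher in F3-KO hearts too. *Plac9a* had means of 2.09 ± 0.79 (SD, n = 3) and 10.6 ± 2.9 CPM in WT and F3-KO sham hearts, and 2.86 ± 1.57 and 14.4 ± 3.2 CPM after TAC. Averaged over surgeries the log2 difference was 2.34 ± 0.30. *Gm9780* was at 0.945 ± 0.637 and 4.35 ± 1.06 CPM in WT and F3-KO sham hearts, and its averaged difference was 2.33 ± 0.34. *Tmem254b*, a transmembrane protein gene that is the next tested gene after *Plac9b*, passed the test and rose by 1.93 ± 0.25 (adjusted p = 0.00484), from 3.61 ± 0.40 to 12.2 ± 1.3 CPM in sham. Its windows were not looked up in other genes, so whether it shares reads was not examined. In all 3 genes the 12 hearts did not overlap by genotype. Of the other 5 neighbours, *Slmap*, *Dennd6a* and *Arf4* lay beyond *Tmem254b* with averaged differences of -0.08, 0.08 and 0.10, and *Gm2260* and *Gm2274* lay among the copies with -1.37 ± 1.06 and -0.19 ± 0.59. None of these 5 was called.

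Because the copies share their coding sequence, their sum is the safer quantity. *Plac9a*, *Gm9780* and *Plac9b* together came to 7.84 ± 2.33 CPM in WT sham and 39.3 ± 4.5 CPM in F3-KO sham hearts. After TAC the sums were 9.59 ± 1.04 CPM in WT and 38.3 ± 4.9 CPM in F3-KO hearts. *Plac9b* held 48.6% to 82.9% of the summed counts in WT hearts and 42.1% to 68.6% in F3-KO hearts, ranges that overlap widely. How much of each copy's value is its own RNA could not be told apart from the way shared reads were divided.

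Around *Tmem181b-ps*, *Dynlt1b* fell with it. Its means were 15.9 ± 2.6 and 4.87 ± 1.73 CPM in WT and F3-KO sham hearts and 19.3 ± 2.4 and 6.80 ± 1.77 CPM after TAC, without overlap, and the averaged log2 difference was -1.60 ± 0.18 (adjusted p = 0.00226). Its relatives *Dynlt1a*, *Dynlt1c* and *Dynlt1f*, in the same gene cluster, had averaged differences of -0.45 ± 0.32, -0.42 ± 0.24 and 0.02 ± 0.22, and none was called. The parent gene *Tmem181a* did not pass either, at -0.00 ± 0.09 averaged over surgeries (adjusted p = 0.996), with 20.2 ± 0.9 and 22.1 ± 2.8 CPM in WT and F3-KO sham hearts. As a share of the counts of both genes, *Tmem181b-ps* held 73.0% to 82.2% in WT hearts and 54.1% to 67.0% in F3-KO hearts. The farther neighbours *Tulp4*, *Ezr* and *Rsph3b* had averaged differences of 0.24, -0.13 and 0.12 and were not called.

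None of the 8 neighbours of *Rab4a* was called by genotype in the single surgeries or on average, by edgeR or by DESeq2. The nearest, *Rhou* and *Ccsap*, had averaged log2 differences of 0.36 ± 0.28 and -0.59 ± 0.26 (adjusted p 0.692 and 0.473). *Acta1*, the skeletal alpha-actin gene that the stressed heart re-expresses, is also a neighbour, and it was called in the averaged surgery contrast at 3.37 ± 0.48 (adjusted p = 0.0248) but not by genotype (1.47 ± 0.45, adjusted p = 0.274). Its means were 119 ± 64 CPM in WT sham and 426 ± 291 CPM in F3-KO sham hearts, then 1590 ± 1400 and 3390 ± 301 CPM after TAC, a course unlike that of *Rab4a*. The other 5 neighbours, *Afg3l1*, *Dbndd1*, *Gas8*, *Nup133* and *Abcb10*, had averaged differences of -0.42 to 0.09.

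With all 12 hearts, none of the neighbours of *Ttc41* reported here, and none of the 8 neighbours of *Wdfy1*, was called by genotype in edgeR or DESeq2 either. *Igf1*, a farther neighbour of *Ttc41*, was at 1.08 ± 0.43 in TAC hearts (adjusted p = 0.474 in edgeR). Without F3-KO TAC replicate 3, edgeR called *Igf1* by genotype in TAC hearts. *Hsp90b1*, the gene of the chaperone GRP94 that adjoins *Ttc41*, had a log2 difference of -0.51 ± 0.23 in sham and 0.31 ± 0.23 in TAC (adjusted p 0.827 and 0.649), and *Nt5dc3* on the other side was at -0.05 ± 0.13 on average. For *Mrpl44*, which overlaps *Wdfy1*, the differences were 0.13 ± 0.13 in sham and -0.32 ± 0.13 in TAC (adjusted p 0.998 and 0.474), and *Ap1s3*, an adaptor protein complex subunit on the other side, was at -0.39 ± 0.19 on average (adjusted p = 0.514).

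**Figure D4:**
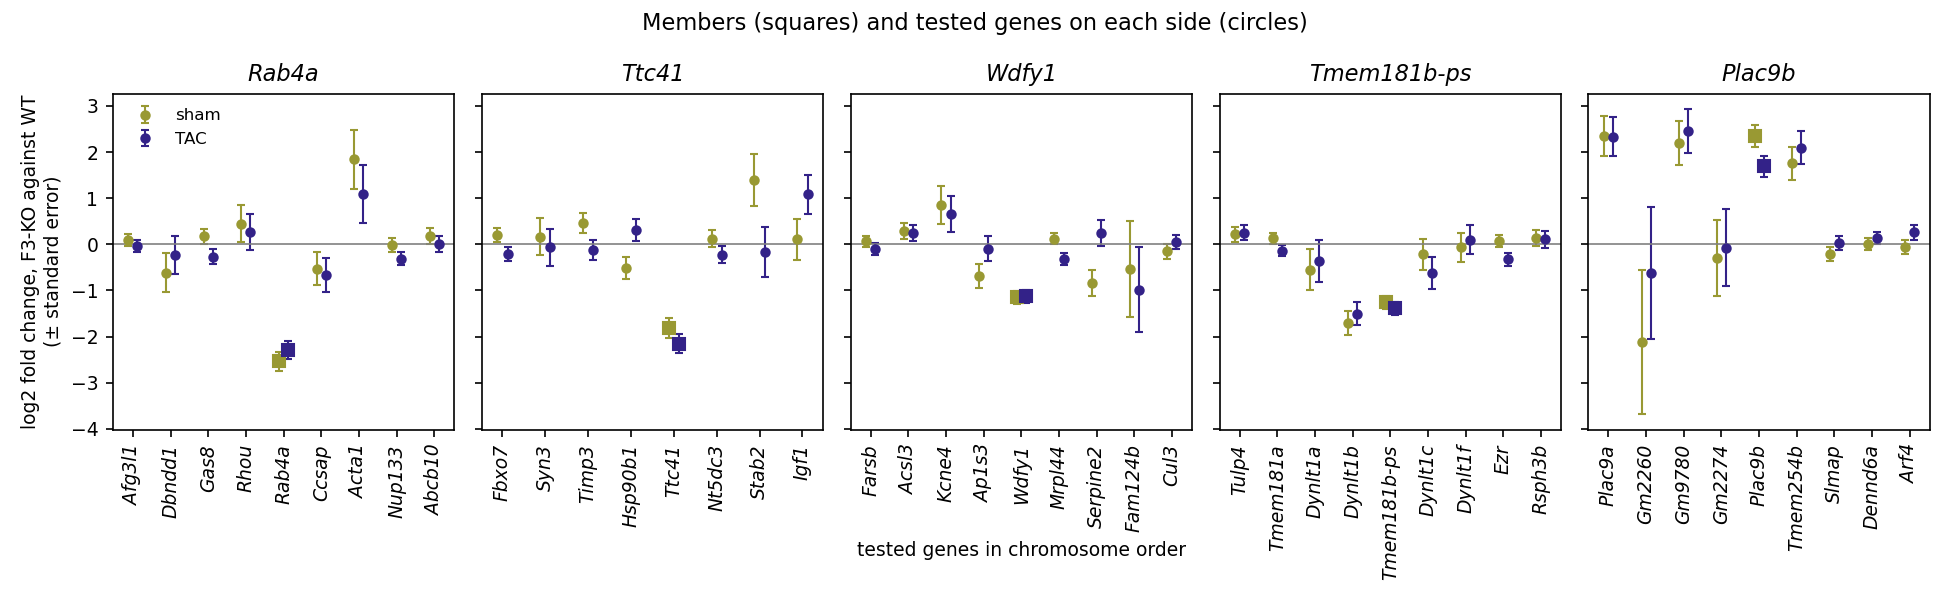
Log2 fold change of F3-KO against WT hearts for each member (squares) and tested genes on each side (circles, in chromosome order without distances), in sham and TAC hearts, with standard errors as bars. *Dynlt1b* lies low beside *Tmem181b-ps*, *Plac9a*, *Gm9780* and *Tmem254b* lie high beside *Plac9b*. *Acta1* beside *Rab4a* also lies off 0 (1.84 ± 0.65 in sham) but was not called by genotype.

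*Ttc41* and *Fabp3* are shown heart by heart in the plot of both counts. The *Ttc41* count was 9.59% to 11.3% of the *Fabp3* count in WT sham hearts and 12.6% to 13.3% in WT TAC hearts. In F3-KO hearts it was 5.16% to 8.18% in sham and 7.61% to 9.32% in TAC. Every F3-KO heart was below every WT heart, so *Ttc41* was lower in F3-KO hearts by a larger factor than *Fabp3* itself. Over the 6 WT hearts the log2 levels of both genes had a Pearson r of 0.983 (exact permutation p = 0.00278, 0.0278 after adjustment over 10 relations, 5 genes in each genotype) and a Spearman rho of 0.943 (exact permutation p = 0.0167, adjusted 0.0833). Without the 2 hearts farthest from the median of *Fabp3*, r was 0.826. Over the 6 F3-KO hearts r was 0.296 (exact permutation p = 0.594, adjusted 0.849) and rho 0.371 (p = 0.497, adjusted 0.829, exact permutation), and without the 2 farthest hearts r was -0.68. With 3 hearts per surgery, no value within a surgery could be given, and the means of both genes were higher in WT TAC than in WT sham hearts. WT sham and WT TAC hearts were at 203 to 321 and 367 to 408 CPM for *Ttc41*, and at 2117 to 2849 and 2887 to 3064 CPM for *Fabp3*. The permutations exchanged hearts across surgeries, so the p-values cannot tell covariation between single hearts from the surgery grouping. None of the other 8 relations passed after adjustment, the nearest being that of *Rab4a* in F3-KO hearts with r of -0.867 (exact permutation p = 0.0236, adjusted 0.118). Its rho was -0.943 (exact permutation p = 0.0167, adjusted 0.0833), of the same size as that of *Ttc41* in WT hearts. Without the 2 farthest hearts its r was -0.836.

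**Figure D5:**
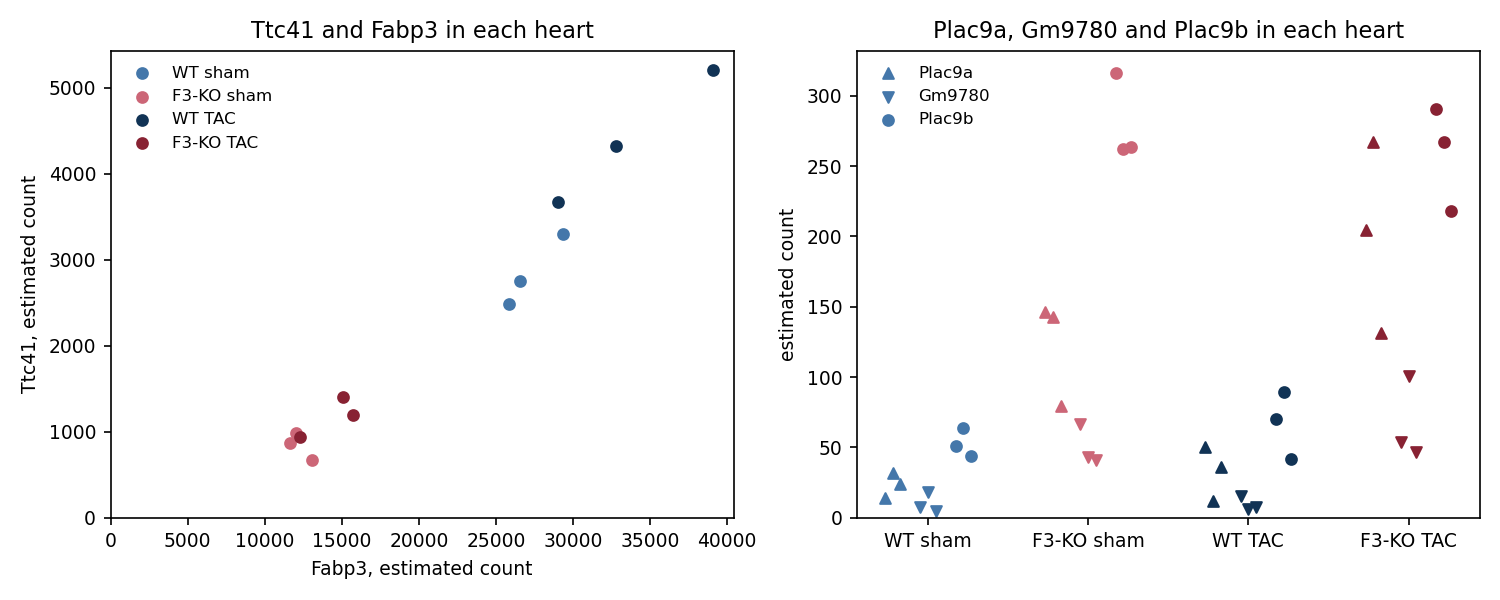
Left, estimated counts of *Ttc41* against those of *Fabp3*, 1 point per heart. Right, estimated counts of *Plac9a*, *Gm9780* and *Plac9b* per heart in each group. WT hearts lie at upper right on the left panel, with *Ttc41* at 9.59% to 13.3% of *Fabp3*, and all 3 copies are higher in F3-KO hearts on the right panel.

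Paralogs were looked at to see whether related genes moved too. The list held 9 names, of which 6 were tested, since *Plac9* and *Gnn* are older names of *Plac9a* and *Ttc41* and *Tmem181c-ps* was not analysed here. Apart from *Plac9a*, described above without a test, none was called by edgeR in any contrast or by DESeq2 in the genotype contrasts. *Rab4b*, the second RAB4 GTPase, was at 12.1 ± 2.5 and 12.5 ± 2.0 CPM in WT and F3-KO sham hearts and at 16.5 ± 4.1 and 15.6 ± 0.9 CPM after TAC, with an averaged genotype difference of -0.02 ± 0.14 (adjusted p = 0.975). *Rab4a* accordingly made up 41.8% to 62.6% of the *Rab4a* and *Rab4b* counts in WT hearts and 13.9% to 22.8% in F3-KO hearts. The FYVE-domain relatives *Wdfy2* and *Wdfy3* had averaged differences of -0.03 ± 0.12 and 0.11 ± 0.09. *Wdfy4*, which is known from antigen cross-presentation in dendritic cells, was at 0.74 ± 0.21 (adjusted p = 0.229).

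The endosomal recycling list held 42 genes, all of which were tested, and 0 were called by genotype in sham, in TAC or on average. DESeq2 called 1, *Rab11b*, in TAC and on average. The median genotype difference of the list was 0.01 in sham and in TAC, beside -0.00 and 0.02 over all tested genes. Over all 14094 tested genes, 849 in sham, 1410 in TAC and 1425 on average had an unadjusted p under 0.05 in edgeR. In the list there were 0 in sham, 3 higher and 1 lower in TAC, and 1 lower on average. *Rab11b*, a GTPase of the slow recycling route, was that gene and the 1 list gene whose 12 hearts did not overlap, with averaged difference -0.27 ± 0.08 (adjusted p = 0.262). Chosen for their known link to RAB4 and not for their values, the effectors *Rabep1* and *Rufy1* were at 0.17 ± 0.10 and -0.13 ± 0.10 on average, and the recycled transferrin receptor gene *Tfrc* at 0.07 ± 0.47. After TAC, 0 of the 42 passed in the averaged surgery contrast, and DESeq2 called 1, *Slc2a4*. At an unadjusted p under 0.05 in edgeR, 5 were higher and 1 lower, beside 2513 of all 14094 genes. The list median was 0.04 beside 0.00 over all genes. *Slc2a4*, the gene of the insulin-responsive glucose transporter GLUT4 that recycles through endosomes, was at -0.50 ± 0.15 (adjusted p = 0.146). Without F3-KO TAC replicate 3, 4 genes of the list were called in that contrast.

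In the list of Toll-like receptor signalling, 33 of 36 genes were tested and 0 were called by genotype in sham, in TAC or on average. At an unadjusted p under 0.05 there was 1 higher and 1 lower in sham, and 4 higher and 1 lower both in TAC and on average. Over all 14094 genes there were 849 in sham, 1410 in TAC and 1425 on average. The median genotype difference of the list was 0.031 in sham, 0.196 in TAC and 0.095 on average. Over all tested genes the median was -0.004, 0.022 and 0.005. The partners named for WDFY1, again chosen for that link, had averaged genotype differences of 0.24 ± 0.14 (*Tlr3*), -0.04 ± 0.16 (*Tlr4*) and -0.10 ± 0.16 (*Ticam1*), with adjusted p of 0.58, 0.949 and 0.862. The averaged surgery contrast called 0 of the 33 as well. At an unadjusted p under 0.05, 15 were higher and 1 lower, beside 2513 of all 14094 genes. The list median was 0.25 beside 0.00 over all genes. *Tlr7*, a receptor for single-stranded RNA, was nearest to the threshold at 1.21 ± 0.23 (adjusted p = 0.0652). *Tlr4* was at 0.72 ± 0.16 and *Tlr3* at 0.36 ± 0.14 there (adjusted p 0.103 and 0.212). Without F3-KO TAC replicate 3, 7 genes of this list were called. DESeq2 called 0 genes of the list by genotype and 5 in the surgery contrast (*Irf7*, *Tlr2*, *Tlr4*, *Tlr7* and *Unc93b1*). Summed macrophage markers were 115 to 260 CPM in the 6 sham hearts and 218 to 437 CPM in the 6 TAC hearts, with none of the 5 genes at 0, and their part in these values was not tested.

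The genes most like each member over the 12 hearts were ranked by Pearson r of log2 CPM, a measure that here mostly reads the gap between the genotypes and is given with no p. *Fabp3* itself came first of all tested genes for *Ttc41* (0.982), *Wdfy1* (0.959) and *Rab4a* (0.956) and was the third for *Tmem181b-ps* (0.931). *Dynlt1b* was among the top 3 for *Ttc41* (0.958), *Wdfy1* (0.955) and *Rab4a* (0.927), and BGIG10090_47737 for *Tmem181b-ps* (0.951), *Rab4a* (0.955) and *Ttc41* (0.93). *Gm40525* completed the list for *Wdfy1* (0.952), and *Cd59a*, a complement inhibitor gene, that for *Tmem181b-ps* (0.936). For *Plac9b* the most alike were *Lrmda* (0.962), *Gm9780* (0.903) and *Arhgap9* (0.902). The most opposite genes were *Lrmda* for *Tmem181b-ps* (-0.956), *Rab4a* (-0.941) and *Wdfy1* (-0.924), *LOC100041599* for *Ttc41* (-0.934) and *Rab4a* (-0.919), *Arhgap9* for *Wdfy1* (-0.93), *Gm21451* for *Ttc41* (-0.922) and *Tmem254b* for *Tmem181b-ps* (-0.941). For *Plac9b* they were *Gm41885* (-0.945) and BGIG10090_47737 (-0.941).

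Other measures moved with genotype too, and their part in the differences was not tested. *Nnt*, the mitochondrial transhydrogenase gene that is known to carry a deletion in the C57BL/6J substrain, was at 1590 ± 155 and 721 ± 62 CPM in WT and F3-KO sham hearts and at 1420 ± 415 and 549 ± 238 CPM after TAC. Its 12 hearts did not overlap, and the averaged log2 difference was -1.25 ± 0.20 (adjusted p = 0.0181), with adjusted p of 0.277 in sham and 0.165 in TAC. Summed skeletal muscle markers, of which the heart also expresses *Ckm* and *Acta1*, were 2000 to 2470 CPM in WT sham and 3130 to 3410 CPM in F3-KO sham hearts, and overlapped after TAC (2830 to 5240 and 5030 to 6070 CPM). Only 2 of these 4 markers passed the filter on low counts, *Acta1* among them, so the sum is not specific to skeletal muscle. Ranges of summed markers of cardiomyocytes, fibroblasts, endothelial cells, macrophages, lymphocytes, red blood cells, adipocytes and smooth muscle overlapped between genotypes in both surgeries, and 0 of the tested genes of any marker list was called by genotype in either. The 5 genes lie on 5 chromosomes (1, 8, 10, 14 and 17), none of them chromosome 4, where *Fabp3* lies.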

How the data were processed

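RNA of 12 mouse hearts was sequenced by BGI, and per the labels the reads were mapped with HISAT2 2.0.4 and STAR 2.3.0. The submitters' processing notes also name DESeq2 and the builds mm8 and mm9 without a role. The counting tool and annotation are not given in the sources used here. The authors deposited estimated counts (expected counts) per gene, not normalized, of which 40.6% were not whole numbers. The planned tests assume whole numbers, so the values were rounded first. For 11 hearts the single table equalled the joint table, and for WT sham replicate 2, whose own table breaks off, the joint table was used.

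Of 19308 gene identifiers, 18225 were found in the RefSeq table of GRCm38.p6, used for names and gene order only. After filterByExpr (minimum count 10), which removed 5214 genes holding 0.0773% of counts, TMM factors were 0.931 to 1.09. edgeR 4.0.16 in R 4.3.3 fitted the 4 groups with quasi-likelihood tests and Benjamini-Hochberg adjustment over all 14094 genes. DESeq2 1.42.0 was an alternative, and both were tested on simulated data. Levels are CPM, log2 CPM used a prior count of 2, and marker sums were scaled by the library total. A count of 3 served as floor, which covers counting error only. Nothing in the labels says how animals were allocated, so p-values measure the spread between these hearts. Other alternatives were other scalings and low-count filters, the replicate number as a block, the 6 libraries compared alone and leaving out each heart.

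The members and gene lists were chosen with earlier results of these data known. Genes named are the 5 members, *Fabp3*, tested paralogs, neighbours, list genes past the threshold, the 3 most and 2 least correlated non-member genes of each member, and *Nnt*. The values of 1 neighbour of *Ttc41* are not reported here. Others were named for a stated link or after their values were seen.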

Additional observations from a re-analysis of the deposited data

How the results depend on the processing

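In each of the 19 alternatives that gave a value, the genotype difference of each of the 5 genes kept its sign in sham and in TAC hearts. The genes were chosen by that difference in these same hearts, so the unchanged sign was largely set by the selection and is no test. With only the 6 libraries compared, 0 of the 5 were called in TAC, where 0 genes were called in all. Without F3-KO sham replicate 3, 2 of the 5 were called in sham, where 2 genes were called in all. No alternative called any of the 5 genes by surgery. Estimates near 0 changed sign: *Plac9b* averaged over genotypes was 0.003 with scaling by the library total and -0.169 to 0.06 with 1 heart left out, and *Rab4a* in WT hearts was -0.022 to 0.111 with 1 heart left out.

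Counts over all genes depended on the tool. DESeq2 called 613, 26 and 442 genes by surgery (averaged, in WT, in F3-KO) and 102, 94 and 217 by genotype (sham, TAC, averaged). Without a filter on low counts edgeR called 23, 1 and 7 by surgery and 17 by genotype in TAC, and with at least 10 counts in every library 36, 1 and 6 by surgery. Scaling by the library total gave 2 by surgery in F3-KO hearts and 9 by genotype in sham. With only the 6 libraries compared, 1 gene was called by surgery in F3-KO hearts, 56 by genotype in sham and 0 in TAC.

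Among paralogs, 1 was called in sham and 1 in TAC by DESeq2 and 1 in sham with the 6 libraries compared (*Plac9a*, which shares its coding sequence with *Plac9b*). DESeq2 called 1 recycling gene each in TAC, by surgery and by averaged genotype, and 5 Toll-like receptor genes by surgery, where the filter of 10 counts gave 1. Among neighbours DESeq2 called 4 in sham, 4 in TAC and 4 by surgery, scaling by the library total 0 in sham, the 6 libraries 3 in sham and no filter 2 in TAC. The 4 in sham and in TAC were *Dynlt1b*, *Gm9780*, *Plac9a* and *Tmem254b*, and the 3 and 2 were among these. *Plac9a* and *Gm9780* share their coding sequence with *Plac9b*, and *Dynlt1b* overlaps *Tmem181b-ps* in RefSeq. Calls of these neighbours are therefore not independent of the selection.

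With 1 heart left out, calls by surgery ranged over 0 to 849, 0 to 1 and 0 to 778. By genotype they ranged over 2 to 23, 6 to 103 and 30 to 125, both in the orders above. The highest counts by surgery averaged and in F3-KO hearts, and by genotype in TAC, came without F3-KO TAC replicate 3. The lowest sham count came without F3-KO sham replicate 3. Paralogs ranged over 0 to 1 in sham and in TAC, recycling genes 0 to 4 and Toll-like receptor genes 0 to 7 by surgery, and neighbours 0 to 2 in sham, 0 to 5 in TAC and 0 to 2 by surgery. These genotype ranges count *Plac9a*, *Gm9780* and *Dynlt1b*, to which the limit above applies. The causes were not tested.

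Replicate numbers are shared between groups, but over 18 pairs of same-numbered hearts the correlation of deviations was -0.141 to 0.362, with 4 over 0.1, and 6 of 12 hearts correlated best with their own number, so the numbers were not taken as pairing. With the replicate number as a block, 1 gene was called by surgery in WT hearts and 8 by genotype in sham, with 1 neighbour called in TAC (*Tmem254b*) and 0 by surgery. With 3 hearts a group and 10424334 to 14372011 counts, small changes in genes near 3 counts were not detectable.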
